A study of Mus musculus with 2 samples.

Results

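The p53 target genes described here are 10 genes that the transcription factor p53 (gene Trp53) is known to switch on: Cdkn1a, Mdm2, Ccng1, Bax, Bbc3, Pmaip1, Sesn1, Sesn2, Trp53inp1 and Phlda3. They were taken by gene symbol from the 32285 genes of the count matrices, and all 10 were found, each once. The cells were live CD45- cells of 2 mouse mammary tumors, 1 labelled Dll1+ and 1 labelled Dll1-, both untreated and called control tumors, with 1 droplet library per tumor. CD45 marks leukocytes, and Dll1 is a ligand of Notch receptors. The sources used here do not give what these tumors are controls for or the basis of the Dll1 labels, nor the strain, genotype, age or p53 status of the tumors. With 1 tumor per group, no value has a replicate check, a difference between tumors cannot be told apart from one between Dll1+ and Dll1- tumors, and the 95% intervals printed cover counting error alone.

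p53 is held low by the ubiquitin ligase Mdm2, which is itself a p53 target, so that the factor limits its own level. When p53 is stabilised, by DNA damage or by oncogene signals that induce the Mdm2 inhibitor encoded by Cdkn2a, its targets slow the cell cycle, promote apoptosis or adjust metabolism. Because p53 is controlled largely at the protein level, the Trp53 mRNA is not a measure of its activity, and each of its targets also answers to other factors.

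p53 binds a pair of half-sites, and stretches of promoter are shown here to let a reader see what such letters look like upstream of the members. Promoters of 300 bases, 250 before and 50 after each annotated start, came from RefSeq (GRCm38.p6). They were found for 8 members, with 12 promoters in all. Trp53inp1 and Pmaip1 were not matched. The p53 half-site, a motif of 10 letters that reads the same on both strands, was searched without mismatch, and pairs of half-sites with a gap of at most 1 base were searched with up to 2 mismatches in all, so that a half-site can overlap a pair. A half-site without mismatch stood in the promoters of 5 members (Cdkn1a, Mdm2, Ccng1, Bax and Sesn1), and in 7.13% of all 32851 promoters of that length. A pair with mismatches stood in 3 members, against 0.551% of all promoters. The first 3 lines show those pairs in capitals and the last line the half-site of Mdm2, each 5′ to 3′ on the gene's strand with flanking bases.
Cdkn1a: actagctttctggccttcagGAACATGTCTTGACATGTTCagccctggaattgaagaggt
Ccng1: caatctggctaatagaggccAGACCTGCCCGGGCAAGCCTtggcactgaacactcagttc
Bax: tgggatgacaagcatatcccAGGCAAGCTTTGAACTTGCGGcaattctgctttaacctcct
Mdm2: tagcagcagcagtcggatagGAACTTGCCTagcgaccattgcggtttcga
These windows lie upstream of an annotated start and hold no annotated untranslated or coding bases. Exons of non-coding transcripts were not checked. The Cdkn1a window is at chr17:29090908-29090967 on the plus strand. On the minus strand lie chr11:40755442-40755501 for Ccng1, chr7:45467059-45467119 for Bax and chr10:117710915-117710964 for Mdm2. Another Cdkn1a promoter (start at chr17:29093769) and another Sesn1 promoter (start at chr10:41810574) held no match. The pair of Cdkn1a had 1 mismatch, that of Ccng1 1 and that of Bax 2. A match is a description of letters. Windows without one say only that these letters are not there.

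The libraries held 117230907 UMIs (unique molecular identifiers, 1 per captured RNA molecule) in the Dll1+ and 135960457 in the Dll1- library, and 9685 and 10132 cells were kept. Shared cell barcodes numbered 109 as deposited and 47 among the cells kept. Cells were grouped by marker genes into epithelial-like cells (8195 and 8636), a Krt5-led class with basal and skin keratinocyte genes (329 and 317), fibroblast-like (355 and 584), pericyte-like (313 and 174) and endothelial-like cells (261 and 280). A macrophage-like class held 21 and 6 cells and was not compared, and 211 and 135 cells stayed unnamed. The antibodies used before sorting included CD31 and Ter119, so the endothelial share may be set by the sort. Levels are in CPM, which scales the UMIs of a gene by all UMIs of its class and library. Dll1 itself stood at 53.5 CPM (52.0 to 55.1) in Dll1+ and 3.91 CPM (3.54 to 4.31) in Dll1- epithelial-like cells. In the Krt5-led class it stood at 89.6 and 84.8 CPM. Epithelial-like cells of the Dll1+ library had a higher median mitochondrial share, 5.68% against 3.68%, and fewer UMIs per cell, 8035 against 10706. Summed markers of other cell types in epithelial-like cells were 84.2 (Dll1+) and 25.5 CPM (Dll1-) for the 10 fibroblast genes and 16.2 and 10.8 CPM for the 10 macrophage genes, against 13068 and 23894 CPM for the 12 epithelial genes. Sums larger than these fibroblast and macrophage values in both libraries came from 3 more lists. They were 412 (Dll1+) and 290 CPM (Dll1-) for the 9 basal, 180 and 561 CPM for the 5 neutrophil and 117 and 119 CPM for the 5 Schwann cell genes.

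In epithelial-like cells the 10 targets did not move one way. Relative to the Dll1- library, Pmaip1, Cdkn1a, Mdm2 and Phlda3 were at least 1.5-fold lower in the Dll1+ library, Sesn1 and Trp53inp1 were at least 1.5-fold higher, and Ccng1, Bax, Bbc3 and Sesn2 lay between. Among all 15251 genes measured (at least 30 UMIs over both libraries) 5.65% were as far below and 20.8% as far above. The median log2 ratio of the members was -0.32 and that of all genes 0.21. CPM is a share of all UMIs, so this offset need not mean that the typical gene was higher in Dll1+ cells. Each log2 ratio sets Dll1+ over Dll1- after adding 1 to both CPM values. The bounds beside it leave that 1 out, so for genes at a low level they can lie beyond the ratio, as for Pmaip1 and Sesn1.

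Among the cell cycle members, Cdkn1a, which encodes the inhibitor p21 of cyclin-dependent kinases, stood at 384 CPM (380 to 388) in Dll1+ and 752 CPM (746 to 757) in Dll1- epithelial-like cells, from 31769 and 78825 UMIs. The log2 ratio was -0.97 (-0.99 to -0.95). Cdkn1a UMIs were found in 63.1% of Dll1+ and 89.0% of Dll1- epithelial-like cells. With each cell thinned to 2000 UMIs these shares were 39.1% (38.0 to 40.2) and 63.8% (62.8 to 64.9), leaving out 607 and 211 shallower cells. So fewer Dll1+ cells carried the transcript at equal depth. No class that should lack these genes was at hand, and free RNA as a source of single UMIs was not tested. Ccng1, which encodes cyclin G1, a partner of the Mdm2 loop, stood at 65.4 CPM (63.7 to 67.2) against 70.6 CPM (69.0 to 72.2), a log2 ratio of -0.11 (-0.16 to -0.06).

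Mdm2, the feedback inhibitor, stood at 52.9 CPM (51.3 to 54.4) in Dll1+ and 97.7 CPM (95.8 to 99.6) in Dll1- epithelial-like cells, a log2 ratio of -0.87 (-0.94 to -0.83). Phlda3, which encodes a repressor of Akt signalling, stood at 90.1 and 149.5 CPM, a log2 ratio of -0.72 (-0.77 to -0.69) that was within 1.5-fold in thinned cells. Both intervals excluded 0, and both ratios were smaller in size than that of Pmaip1.

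The apoptosis members split. Pmaip1 encodes Noxa, a BH3-only protein that blocks Mcl1. It stood at 4.65 CPM (4.20 to 5.14) in Dll1+ and 29.1 CPM (28.1 to 30.1) in Dll1- epithelial-like cells, from 385 and 3051 UMIs, the largest ratio of the 10 at -2.41 (-2.80 to -2.49). Bbc3 encodes the BH3-only protein Puma and stood at 32.8 and 47.8 CPM, a log2 ratio of -0.53 (-0.61 to -0.48). This ratio lay within 1.5-fold, but its interval crossed that line and 16 alternatives gave -0.79 to -0.35. Bax encodes the effector that permeabilises mitochondria, and it stood at 369.7 CPM (366 to 374) against 362 CPM (358 to 365). These 3 genes thus ranged from near equality to the lowest ratio of the list.

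The stress and metabolism members went the other way or stayed level. Sesn1, which encodes a sestrin that restrains mTORC1, stood at 18.4 CPM (17.5 to 19.4) in Dll1+ and 4.84 CPM (4.43 to 5.28) in Dll1- epithelial-like cells, a log2 ratio of 1.73 (1.78 to 2.08). Sesn2, its relative, stood at 18.8 and 17.4 CPM. Trp53inp1, which encodes a stress protein linked to autophagy and apoptosis, stood at 187 CPM (184 to 190) against 89.4 CPM (87.6 to 91.2), a log2 ratio of 1.06 (1.028 to 1.102). The higher genes were therefore a sestrin and Trp53inp1, and the lower ones Cdkn1a, Mdm2, Phlda3 and Pmaip1.

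**Figure D1:**
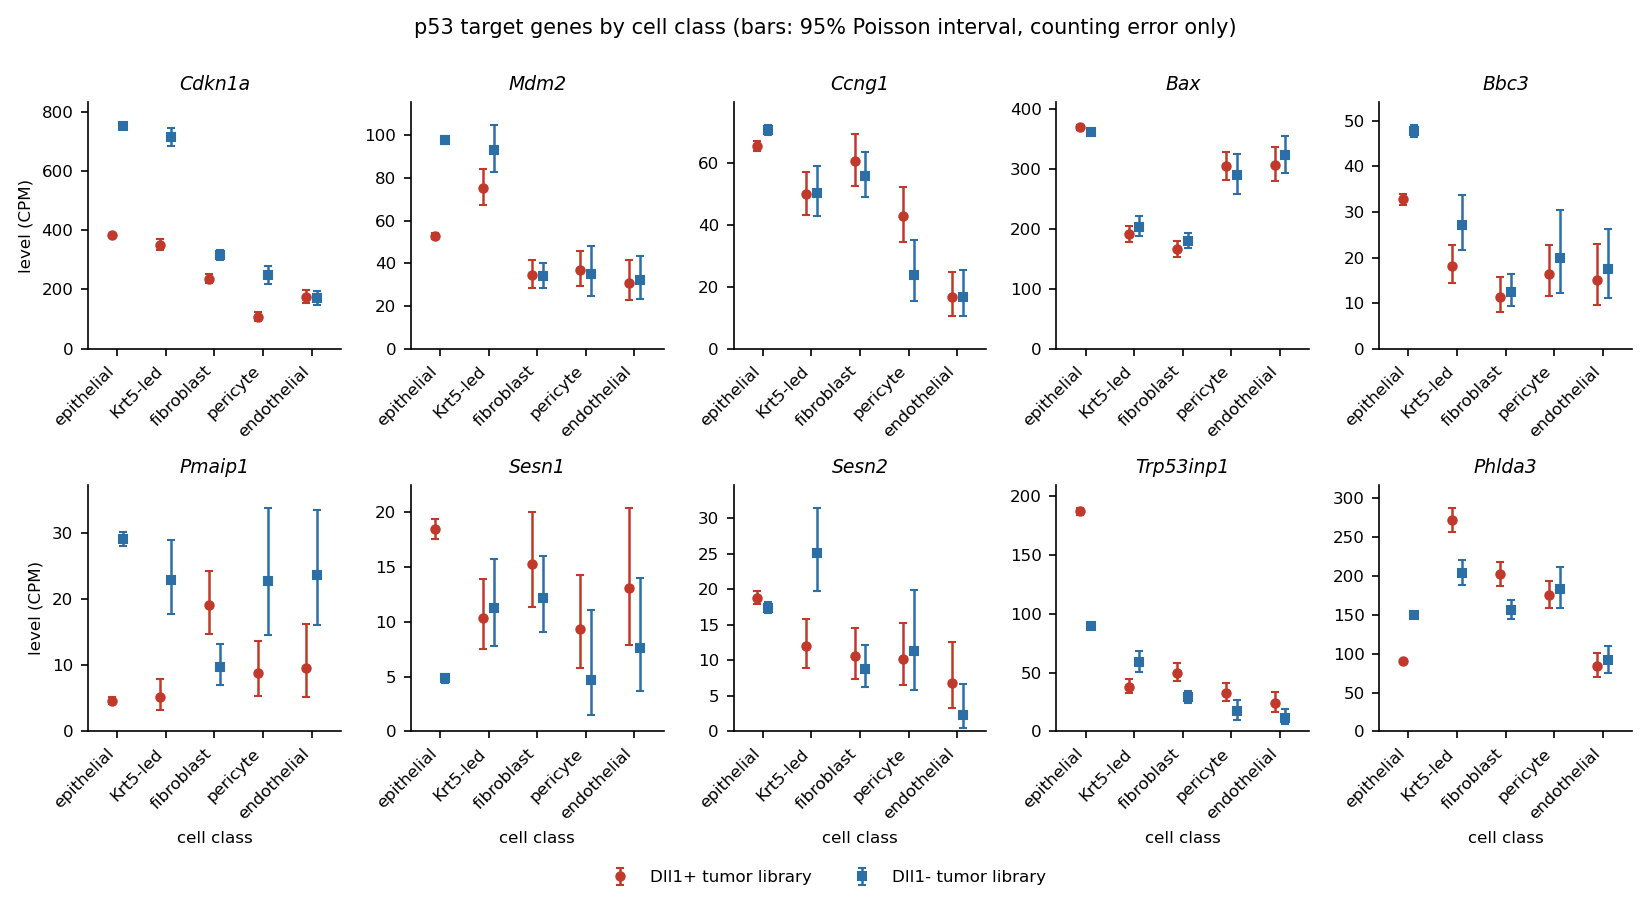
Level of each p53 target gene (vertical axis, CPM from 0) by cell class (horizontal axis) in the Dll1+ (red circles) and Dll1- (blue squares) library, with 95% Poisson intervals that cover counting error only. Cdkn1a stands at 752 CPM in Dll1- and 384 CPM in Dll1+ epithelial-like cells, and Pmaip1 is low in Dll1+ cells of each class but the fibroblast-like one.

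The other classes did not repeat the epithelial pattern gene for gene. In the Krt5-led class 4 members were lower (Cdkn1a, Pmaip1, Sesn2 and Trp53inp1) and 0 higher, where 8.62% of 10204 genes were lower and 15.9% higher. Cdkn1a stood at 351 CPM (334 to 370) in Dll1+ and 717 CPM (687 to 748) in Dll1- cells, close to the epithelial ratio. Trp53inp1 stood at 38.0 CPM against 58.6 CPM, opposite in direction to the epithelial-like cells. Thinned to 2000 UMIs, its log2 ratio turned from -0.61 to 0.23 in this class, so its direction there changed with thinning. With doublets left in, Trp53inp1 (-0.58) and Sesn2 (-0.58) both lay just under 1.5-fold, as did Trp53inp1 (-0.52) with an added 10 CPM. Phlda3 was opposite to the epithelial-like cells too, at 272 against 204 CPM, a log2 ratio of 0.41 (0.27 to 0.56). The class differed between tumors in its markers. Summed markers of smooth muscle were 4907 (Dll1+) and 1261 CPM (Dll1-), those of skin or hair keratinocytes 3033 and 7156 CPM and those of fibroblasts 1271 and 417 CPM, while the 9 basal genes stood at 9863 and 9762 CPM. Their part in these ratios was not tested.

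In fibroblast-like cells 2 members were higher, Pmaip1 at 19.1 CPM (14.7 to 24.3) against 9.79 CPM (7.02 to 13.3) and Trp53inp1 at 49.9 CPM (42.6 to 57.9) against 29.1 CPM (24.2 to 34.8). None was lower, and the background was 9.01% higher and 5.01% lower. These rest on 65 and 41 UMIs for Pmaip1 and on 170 and 122 for Trp53inp1. The log2 ratio of Pmaip1 was 0.55 with an added 10 CPM, and that of Trp53inp1 0.08 in thinned cells, both under 1.5-fold. Cdkn1a stood at 237 and 317 CPM, within 1.5-fold.

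In pericyte-like cells 9 members were measured. Ccng1 and Trp53inp1 were higher, Cdkn1a (108 against 249 CPM) and Pmaip1 (8.89 against 22.7 CPM) lower, and 16.9% and 4.16% of all genes were called higher and lower. With cells of at most 10% mitochondrial UMIs this class took in 174 cells of an unnamed cluster, and Cdkn1a stayed within 1.5-fold at a log2 ratio of -0.48. With doublets left in it took in 235 such cells and 333 doublets. The log2 ratio of Ccng1 then turned from 0.82 to -0.29 and that of Trp53inp1 was 0.39 in place of 0.91. The pericyte-like class also differed between tumors in its markers. Summed pericyte markers were 10336 (Dll1+) and 7619 CPM (Dll1-). Those of smooth muscle were 7439 and 10326 CPM and those of fibroblasts 12840 and 16068 CPM. Their part in the pericyte-like ratios was not tested. In endothelial-like cells 8 members were measured, Trp53inp1 was higher (24.1 against 11.4 CPM) and Pmaip1 lower (9.64 against 23.6 CPM), with a background of 9.98% and 4.3%. Cdkn1a was level there, at 174 CPM (153 to 197) and 169.8 CPM (148 to 194). Summed epithelial markers were 338 (Dll1+) and 1004 CPM (Dll1-) in pericyte-like cells, 663 and 981 CPM in fibroblast-like cells and 505 and 536 CPM in endothelial-like cells. The part of tumor cell RNA in the stromal values was not tested.

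**Figure D2:**
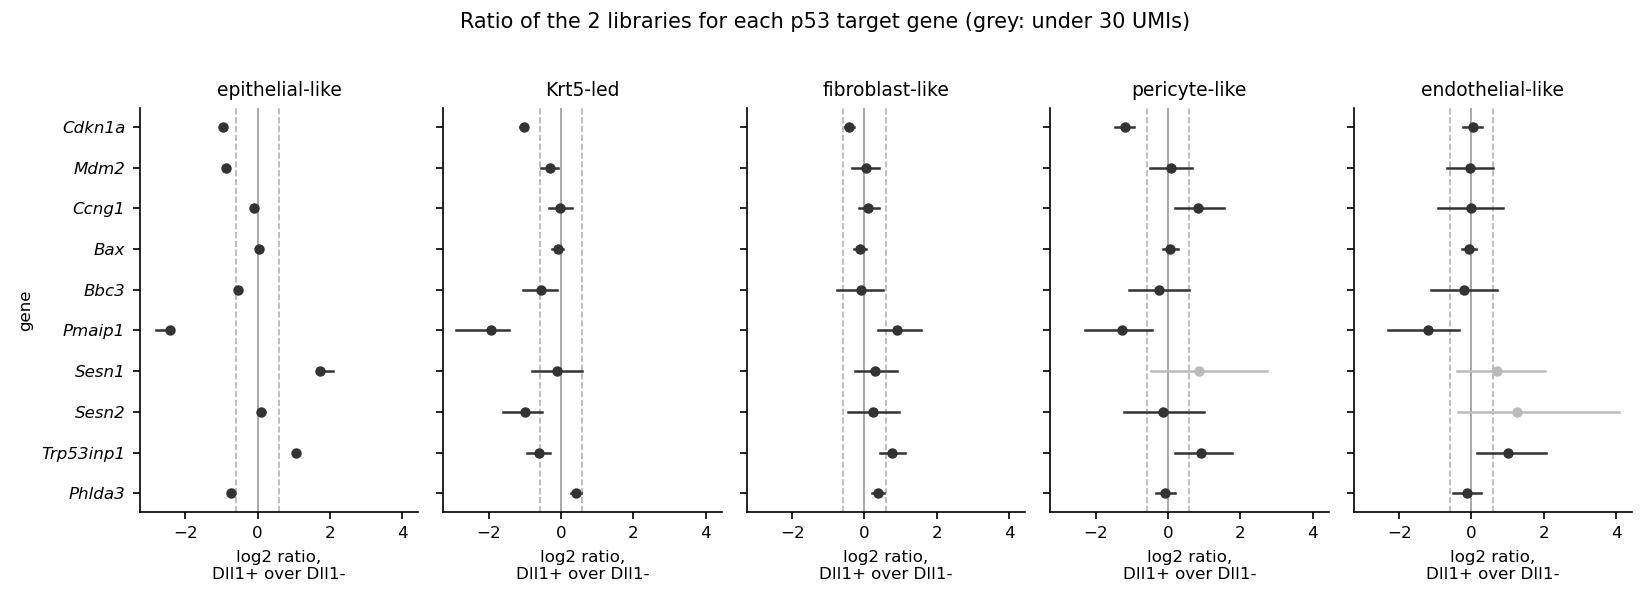
Log2 ratio of Dll1+ over Dll1- (horizontal axis, on CPM plus 1) for each gene (vertical axis) in 5 cell classes. Points are the ratios, lines the 95% intervals of the ratio without the added 1, dashed lines mark 1.5-fold and grey marks genes under 30 UMIs. Pmaip1 lies left of the dashed lines in every class drawn except the fibroblast-like one, where it is at 0.90.

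Across the 5 classes, Cdkn1a was highest in epithelial-like cells of both libraries. In the Dll1- library its epithelial and Krt5-led levels did not differ beyond their intervals. Its lowest level was in pericyte-like cells of the Dll1+ and endothelial-like cells of the Dll1- library. Bax was highest in epithelial-like and lowest in fibroblast-like cells of both libraries, but its lowest level overlapped in its interval with that in Krt5-led cells. Phlda3 was highest in Krt5-led and lowest in endothelial-like cells. Intervals of Phlda3 overlapped between Krt5-led and pericyte-like cells of the Dll1- and between endothelial-like and epithelial-like cells of the Dll1+ library. Pmaip1 changed place, as fibroblast-like cells came first in the Dll1+ library and last in the Dll1- library. In the Dll1+ library their interval overlapped that of endothelial-like cells, the next class. Over the 10 points of 5 classes and 2 libraries, the levels of Cdkn1a and Mdm2 followed each other most among the pairs of members (Pearson r 0.85). Those of Bax and Phlda3 ran most opposite to each other (r -0.68). Among the 8955 genes at 20 CPM or more at any point, the genes outside the list most like a member were Klk10 for Mdm2 (r 0.98), Mrps18b for Bbc3 (0.98), Plekha6 for Trp53inp1 (0.97), Rac3 for Sesn2 (0.96), Rps28 for Cdkn1a (0.96) and Npepps for Ccng1 (0.96). Cbx1 was most like Bax (0.95), Clip1 most like Sesn1 (0.94), Hspb11 most like Phlda3 (0.94) and Nfe2l1 most like Pmaip1 (0.81). Points share a library, and these values only describe them.

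The epithelial-like cells were divided into sub-states whose shares differed between the tumors, and the epithelial-like ratios above pool them. Cells were clustered without integration, so a difference between libraries and one in tumor make-up cannot be told apart here. E1 (led by Rec8, Lalba and Wap; 1190 Dll1+ and 5008 Dll1- cells), E3 (Fermt1 and Krt7; 260 and 3079) and E5 (mitosis genes; 109 and 524) were in both libraries. E2 (Prpmp5, Cd74 and Cxcl10; 4141 and 1), E4 (Ptn, Pdpn and Rbp7; 2307 and 16) and E6 (Spp1 and Chil1; 188 and 8) were nearly all Dll1+. Of 14 mitosis genes 14 in E5 and 9 in E4 stood at least 1.5-fold above the other epithelial-like cells, and 0 in the other 4 sub-states. Cdkn1a in Dll1+ cells ranged from 139 CPM (135 to 144) in E4 through 476 CPM in E2 and 578 CPM in E1 to 633 CPM (602 to 664) in E3. In E4, Mdm2 at 36.0 CPM and Pmaip1 at 2.54 CPM were also low, while Sesn1 at 26.8 CPM (24.9 to 28.8) was the highest of the sub-states. E6 held 0 Pmaip1 UMIs, which at a floor of 3 counts allows a level of up to 1.47 CPM. Trp53inp1 was highest in E2, at 309 CPM (303 to 315), and Sesn1 stood there at 19.8 CPM. In sub-states common to both tumors, Sesn1 stood at 6.09 (Dll1+) and 5.88 CPM (Dll1-) in E1.

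Within shared sub-states fewer members were 1.5-fold apart than in the pooled class. Sub-states were clustered on these same counts, members not left out, so cells that share one are alike in part by selection. In E1, Mdm2 (57.2 against 89.5 CPM) and Pmaip1 (6.03 against 28.4 CPM) were lower and 0 members higher, against a background of 3.75% lower and 8.89% higher. In E3, Bbc3 (34.0 against 54.9 CPM) and Pmaip1 (9.66 against 31.6 CPM) were lower and 0 higher (5.17% and 18.9%). In E5, Mdm2, Bbc3, Pmaip1 and Sesn2 were lower and Sesn1 higher (7.46% and 7.99%). The 109 Dll1+ cells of E5 held 11 Pmaip1, 15 Sesn2 and 25 Sesn1 UMIs. The intervals of the log2 ratios there were -3.61 to -1.73 for Pmaip1 and 0.07 to 1.47 for Sesn1. Pmaip1 was thus lower in the Dll1+ library in each of the 3 sub-states, by log2 ratios of -2.06, -1.61 and -2.35. Cdkn1a was lower by less, at -0.33, -0.46 and -0.52. With the 3 weighted alike, 1 member was 1.5-fold lower (Pmaip1, -1.96) and 0 higher. The log2 ratios then were -0.43 for Cdkn1a, -0.50 for Mdm2, -0.30 for Phlda3, 0.39 for Sesn1 and 0.18 for Trp53inp1. Without E4 alone, Cdkn1a stood at -0.57 and Phlda3 at -0.57, just under 1.5-fold.

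**Figure D3:**
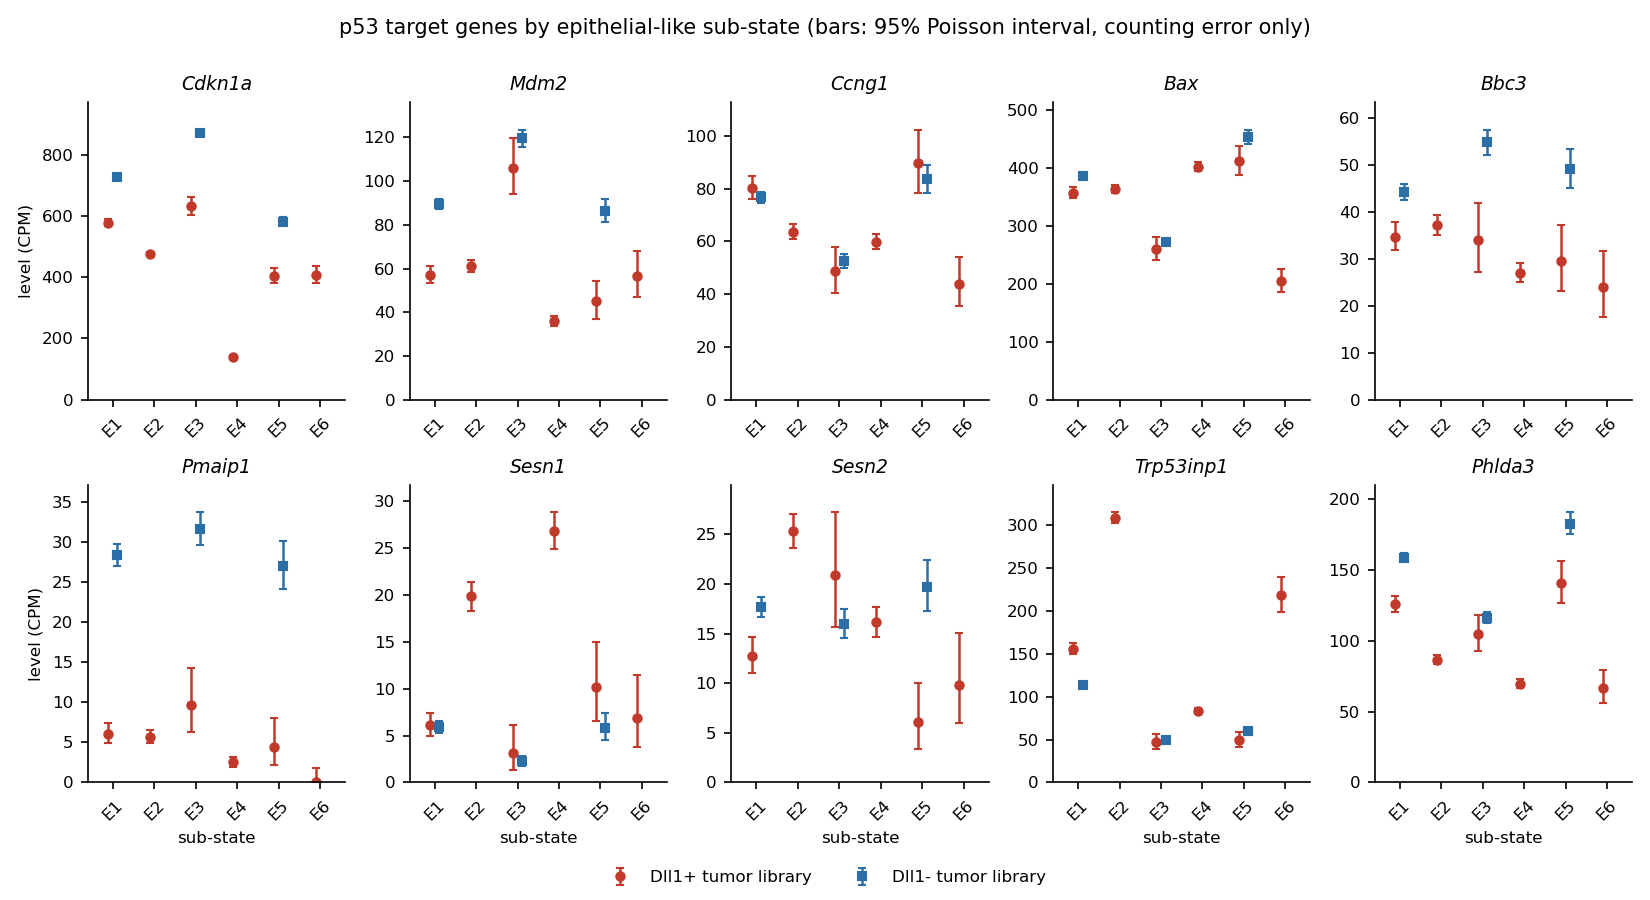
Level of each p53 target gene (vertical axis, CPM from 0) in 6 epithelial-like sub-states (horizontal axis) of the Dll1+ (red circles) and Dll1- (blue squares) library, with 95% Poisson intervals. Library and sub-state pairs under 50 cells are left out. Cdkn1a is lowest in E4, at 139 CPM, and Pmaip1 is lower in Dll1+ cells of E1, E3 and E5.

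The mitochondrial share moved with the library, so epithelial-like cells were also compared within 3 ranges of it. These were under 3%, 3 to 6% and 6 to 20% of UMIs. Thinned Cdkn1a levels were 599.7 (Dll1+) and 901 CPM (Dll1-) in the lowest range and 318 and 599 CPM in the highest. Pmaip1 stood at 8.13 and 32.1 CPM in the lowest range and at 5.32 and 33.7 CPM in the highest. Both were lower in the Dll1+ library within each range, and Sesn1 and Trp53inp1 were higher within each.

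Within each tumor, epithelial-like cells with more Cdkn1a also held more of most other members. The cells were thinned to 2000 UMIs and split by their own Cdkn1a count, so that the comparison is within a library. In the Dll1+ library, cells with 3 or more Cdkn1a UMIs (831) were set against cells with 0 (4620). Of the 9 other members 8 were at least 1.5-fold higher and 0 lower, where 4.69% of 11081 genes were higher and 12.4% lower. In the Dll1- library (1864 against 3046 cells) 7 were higher and 1, Sesn1, lower, where 2.29% of 10228 genes were higher and 4.54% lower. The median log2 ratio of the 9 was 1.03 and 0.95, against -0.09 and -0.03 for all genes. Cells of 1 tumor are not replicates, and this describes these 2 tumors.

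Phlda3 differed most in the Dll1+ library, from 63.0 CPM (58.0 to 68.3) in cells without to 214 CPM (192 to 237) in cells with 3 or more Cdkn1a UMIs. In the Dll1- library it went from 103 to 226 CPM. Mdm2 went from 47.5 to 116 CPM in Dll1+ and from 66.2 CPM (59.9 to 72.9) to 177 CPM (163 to 191) in Dll1- cells. Trp53inp1, although higher overall in the Dll1+ tumor, was higher with more Cdkn1a in both, from 190.0 to 509 CPM and from 68.6 to 144 CPM. Sesn2 went from 20.02 to 46.9 and from 11.7 to 30.8 CPM, and Bbc3 from 30.1 to 62.0 and from 34.3 to 67.1 CPM. Ccng1 went from 50.5 to 104 CPM in Dll1+ and from 52.2 to 91.7 CPM in Dll1- cells. Bax was 1.5-fold apart in Dll1+ cells (308 to 526 CPM) but not in Dll1- cells (314 to 404 CPM). Pmaip1 went from 5.30 to 9.63 CPM in Dll1+ cells, with an interval of the log2 ratio from -0.05 to 1.70, and from 25.3 to 42.9 CPM in Dll1- cells. Even Dll1+ cells rich in Cdkn1a thus held less Pmaip1 than Dll1- cells with 0 Cdkn1a UMIs.

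Sesn1 stood apart from the other 8, at 20.2 and 18.7 CPM in Dll1+ and 6.89 and 3.49 CPM in Dll1- cells, the latter from 42 and 13 UMIs in cells with 0 and with 3 or more Cdkn1a UMIs. Its Dll1- level was not called lower with an added 10 CPM or in cells thinned to 4000 UMIs. The Trp53 mRNA stood at 107 and 94.5 CPM in Dll1+ and at 74.4 and 77.3 CPM in Dll1- cells, with intervals of the log2 ratio that held 0. The proliferation gene Mki67 went from 44.0 to 15.04 CPM and from 34.8 to 23.6 CPM. Sub-states differ in Cdkn1a, so the split was repeated in E1 alone. There 5 of 6 measured members were higher and 0 lower in Dll1+ cells (184 against 564), where 6.35% of genes were higher and 11.6% lower. In Dll1- cells (983 against 1953) 7 of 9 were higher and 1, Sesn1, lower, where 2.48% were higher and 5.01% lower. That Sesn1 value rests on 11 and 36 UMIs, with an interval of the log2 ratio from -1.84 to 0.29. Mdm2 went from 47.9 to 125 CPM in Dll1+ and from 65.0 to 159.7 CPM in Dll1- cells of E1. Median mitochondrial shares were 4.20% and 5.83% in Dll1+ cells with 3 or more and with 0 Cdkn1a UMIs, and 3.19% and 3.89% in Dll1- cells. Their part in these differences was not tested.

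**Figure D4:**
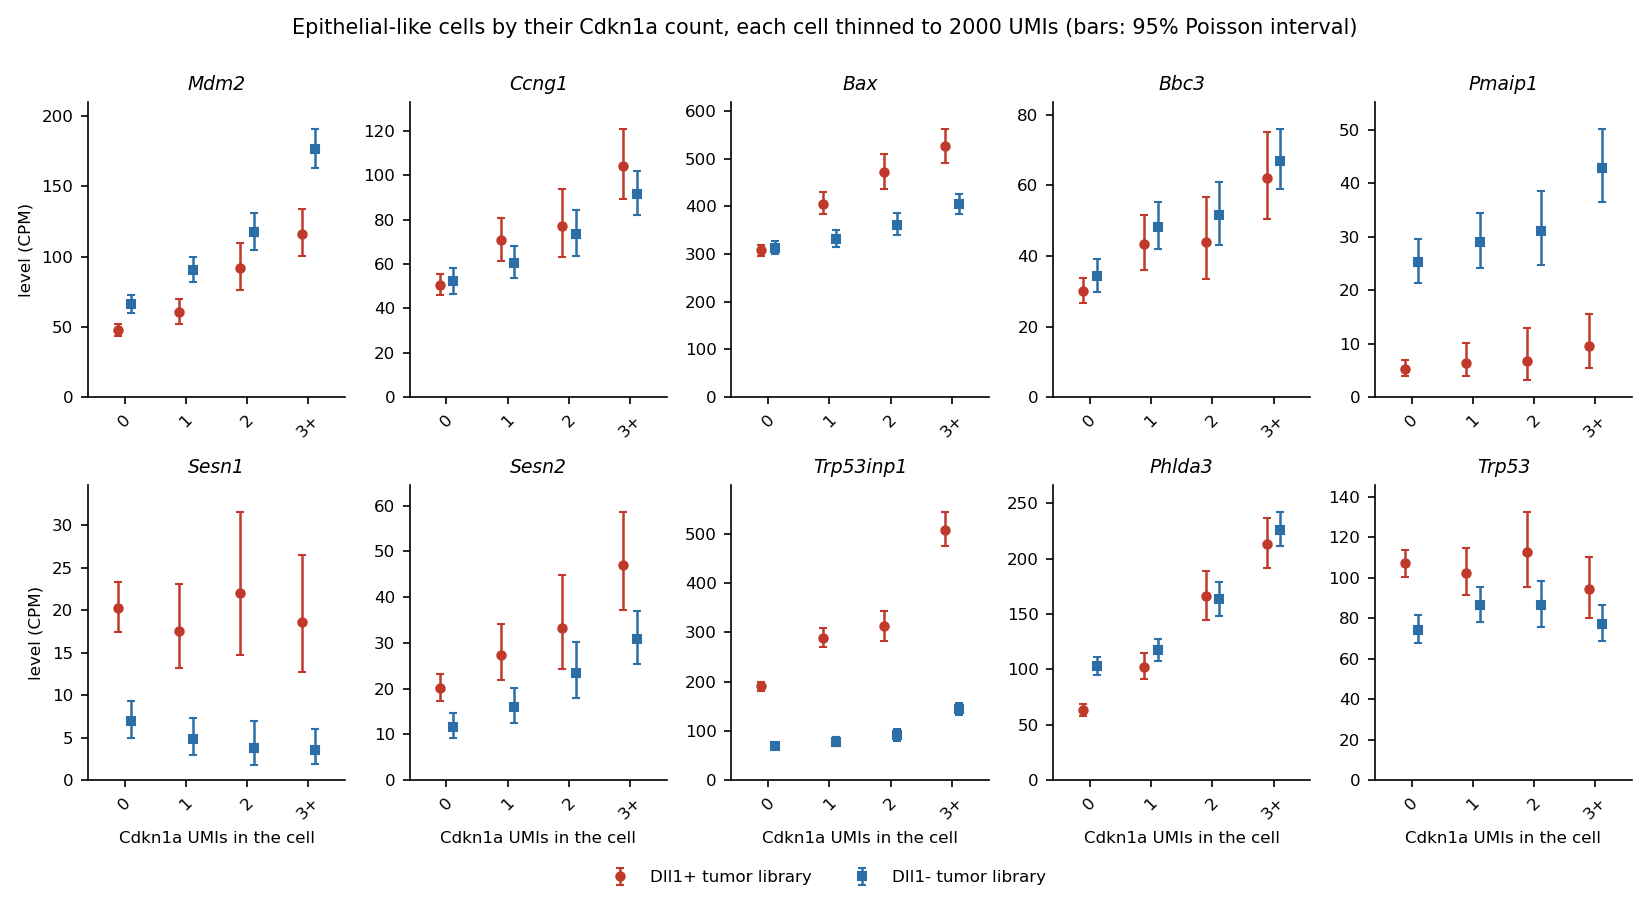
Level of the 9 other members and of Trp53 (vertical axis, CPM from 0) in epithelial-like cells with 0, 1, 2 and 3 or more Cdkn1a UMIs (horizontal axis), each cell thinned to 2000 UMIs, in the Dll1+ (red circles) and Dll1- (blue squares) library, with 95% Poisson intervals. Each member drawn except Sesn1 is higher at each step of the count in both libraries, in some steps by less than the intervals. Trp53 and Sesn1 are not.

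A split by mitosis transcripts gave no such common move. Cells with 3 or more UMIs of 14 mitosis genes were set against cells with 0. In the Dll1+ library (642 and 6157 cells) 0 members were higher and 4 lower, Cdkn1a (174 against 455 CPM), Bbc3, Sesn2 and Trp53inp1 (59.2 against 283 CPM), where 22.7% of genes were higher and 23.9% lower. In the Dll1- library (513 and 7162 cells) Sesn1 was higher and Trp53inp1 lower, where 22.6% were higher and 17.7% lower. That Sesn1 value rests on 9 and 72 UMIs, with an interval of the log2 ratio from -0.38 to 1.81. Cdkn1a stood there at 597 against 803 CPM. The cells compared sat in different sub-states: E1 held 13 of the 642 Dll1+ cells with 3 or more mitosis UMIs and 1019 of the 6157 with 0. Those 13 cells held 4 Cdkn1a UMIs, a level of 154 against 579 CPM in E1 cells with 0 mitosis UMIs, with an interval of the log2 ratio from -3.79 to -0.55. In Dll1- cells of E1 (59 against 4374) Cdkn1a stood at 517 against 739.9 CPM, a log2 ratio of -0.52 (-0.91 to -0.15). Cells with mitosis UMIs were deeper before thinning, with medians of 19700 and 7982 UMIs in Dll1+ and 20726 and 10446 in Dll1- cells.

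Regulators and further targets of p53 were read from lists, in epithelial-like cells, where 20.8% of all genes were higher and 5.65% lower. The ratios of these and the following lists pool sub-states, of which E2, E4 and E6 were nearly absent from the Dll1- library. Ratios of listed genes within shared sub-states were not compared, and the part of the sub-states in them was not tested. The list ratios were also not centred or rescaled. TMM scaling, used below for the members, moved log2 ratios of this class by -0.26, so calls near 1.5-fold depend on it. Of 14 regulators 13 were measured, 5 were at least 1.5-fold higher in the Dll1+ library and 0 lower, with a median log2 ratio of 0.52 against 0.21 for all genes. Cdkn2a, whose p19Arf product blocks Mdm2, stood at 177 against 72.8 CPM, a log2 ratio of 1.27 (1.24 to 1.32). Its transcripts for p16Ink4a and p19Arf were not separated. The kinase gene Chek1 (5.70 against 3.25 CPM), the p53 kinase gene Hipk2 (19.8 against 12.7 CPM), the acetyltransferase gene Ep300 (31.0 against 19.3 CPM) and the p53 relative Trp63 (2.63 against 1.29 CPM) were the others. Their log2 ratios (0.66, 0.60, 0.65 and 0.67) would lie under 1.5-fold with the TMM shift, and that of Cdkn2a would not. Trp53 itself stood at 116 against 80.4 CPM, a log2 ratio of 0.52. The damage kinase genes Atm (0.46), Atr (0.58) and Chek2 (0.49), the p53 inhibitor gene Mdm4 (0.26), the deubiquitinase gene Usp7 (0.21), the phosphatase gene Ppm1d (0.35) and Trp53bp1 (-0.11) stayed within 1.5-fold by these log2 ratios. Trp73 had 4 UMIs in each library.

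Of 36 other p53 targets, all measured, 6 were higher and 7 lower, with a median log2 ratio of 0.06, against 20.8% of all genes higher and 5.65% lower. The lower ones with the largest ratios were Trp53i11 (30.7 against 82.1 CPM), the cell cycle arrest gene Rprm (2.20 against 7.04 CPM) and the Polo-like kinase gene Plk2 (119 against 217 CPM). The higher ones at 5 CPM or more were led by the reductase gene Dcxr (159 against 61.2 CPM), the inflammatory caspase gene Casp1 (55.6 against 24.6 CPM) and Fdxr (14.4 against 6.41 CPM), which encodes ferredoxin reductase. As among the 10 members, this list held genes on both sides.

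Of 13 BCL2 family genes 3 were higher and 2 lower, where the shares of all genes were again 20.8% and 5.65%. Bcl2l11, which encodes the BH3-only protein Bim, stood at 27.8 against 58.7 CPM and the survival gene Bcl2l1 at 61.5 against 98.7 CPM. The BH3-only gene Bik stood at 73.1 against 33.7 CPM, Bcl2 at 41.8 against 20.8 CPM and the effector gene Bak1 at 55.3 against 34.7 CPM. Among 5 other inhibitors of cyclin-dependent kinases 2 were higher, Cdkn2c (16.4 against 4.76 CPM) and Cdkn1c (12.4 against 4.48 CPM), and 0 lower. Of 14 DNA replication genes 11 were higher and 0 lower, led by Mcm5 (24.8 against 10.3 CPM), Mcm6 (33.8 against 15.8 CPM) and Mcm3 (22.7 against 10.7 CPM). Of 14 mitosis genes 6 were higher and 0 lower, led by Top2a (72.4 against 40.4 CPM), Aurkb (16.7 against 9.14 CPM) and Ccnb2 (41.9 against 23.9 CPM). The log2 ratios of Top2a (0.83), Aurkb (0.80) and Ccnb2 (0.78) would lie under 1.5-fold with the TMM shift of -0.26. E4, nearly absent from the Dll1- library, is part of this class and holds both the lowest Cdkn1a of the sub-states and more of 9 mitosis genes, and its part in the replication and mitosis counts was not tested.

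The amino acid and integrated stress response, which can induce Sesn2 without p53, had 11 measured genes with 3 higher and 1 lower, near the shares of all genes (20.8% and 5.65%). Vldlr (34.3 against 16.2 CPM), Phgdh (82.0 against 40.2 CPM) and Nupr1 (637 against 362 CPM) were higher, and Asns (28.9 against 44.7 CPM) lower. Of 12 immediate early and dissociation genes, which tissue digestion can induce, Egr1 (1178 against 556 CPM) was higher, Fosb (615 against 963 CPM) lower and the other 10 lay between.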

How the data were processed

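Raw counts of UMIs per gene and cell barcode were deposited by the authors for live CD45- cells of 1 Dll1+ and 1 Dll1- tumor. Per the file headers, Cell Ranger 4.0.0 produced them. The submitters' processing notes name the build mm10. The sources used here do not give the annotation, counting settings or strand handling. The deposited Dll1+ and Dll1- matrices held 13819 and 13097 barcodes.

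Barcodes with at least 1000 UMIs, 500 genes and at most 20% mitochondrial UMIs were kept. The automatic doublet threshold of scrublet in scanpy marked 0 and 0 barcodes and had not worked, so the 896 and 989 highest-scoring barcodes were removed, at 0.8% per 1000 barcodes. Cells of both libraries were clustered together without integration (scanpy 1.11.5, leidenalg 0.10.2, Python 3.11.15; 2000 variable genes, 30 components, 15 neighbours, resolution 0.6, and 0.4 for sub-states). Clusters were named from marker lists, with at least 3 markers and 50% of the list each found in at least 20% of their cells. A name also required that no other list had more markers among the 10 leading genes of the cluster. Shallow clusters with no marker of the name among their leading genes stayed unnamed. 2 clusters stayed unnamed (211 Dll1+ and 135 Dll1- cells). The Krt5-led class met the rule for basal cells.

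UMIs were summed per class and library and given as CPM. With 1 library per group there is no test and no p-value. Intervals are exact Poisson for CPM, Clopper-Pearson for shares and conditional binomial for ratios, at 95%, and cover counting error only. A gene was called 1.5-fold apart on CPM plus 1 with at least 30 UMIs over both libraries. The ratio code was tested on simulated counts of the epithelial-like class, with 15251 genes and 200 of them changed 2-fold. It called 100.0% of the changed genes at 5 CPM or more and 0.0% of those under 1 CPM, which the added 1 CPM hides.

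The members and lists were chosen with earlier results of these data known. Named genes are the members, all measured regulators, up to 3 highest and 3 lowest genes of each other list among those 1.5-fold apart and at 5 CPM or more in epithelial-like cells, and for each member the gene most alike across classes. Ddit3 had more than 1 gene ID and was left out. Scaling by edgeR 4.0.16 (TMM), other added constants and filters, other cell sets and another resolution were tried as alternatives.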

Additional observations from a re-analysis of the deposited data

Results flagged for a closer look

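The Dll1+ to Dll1- ratio of 2 members was at least 1.5-fold in opposite directions in different cell classes, with counting intervals on either side of 0. For 3 more the intervals also lay on either side of 0, with a ratio under 1.5-fold on one side: Phlda3 (-0.72 in epithelial-like, 0.41 in Krt5-led and 0.37 in fibroblast-like cells), Sesn2 (0.11 in epithelial-like and -1.01 in Krt5-led cells) and Ccng1 (-0.11 in epithelial-like and 0.82 in pericyte-like cells). Over 16 alternatives the epithelial-like log2 ratio of Sesn2 ran from -0.40 to 0.45 and changed sign in 4. Within shared sub-states that of Sesn2 was -0.44 in E1, 0.36 in E3 and -1.55 in E5. The pericyte-like ratio of Ccng1 turned to -0.29 with doublets left in. The differences between classes were not tested, since each class had 1 library per tumor.

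Pmaip1 was lower in the Dll1+ library in epithelial-like, Krt5-led, pericyte-like and endothelial-like cells and higher in fibroblast-like cells. The log2 ratio in epithelial-like cells lay 3.31 below that in fibroblast-like cells (difference -3.31), and that in Krt5-led cells 2.84 below it (difference -2.84). The ratio in fibroblast-like cells lay 2.16 above that in pericyte-like cells and 2.10 above that in endothelial-like cells. The fibroblast-like value rests on 65 and 41 UMIs.

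Trp53inp1 was lower in the Dll1+ library in Krt5-led cells and higher in the other 4 classes. The log2 ratio in epithelial-like cells lay 1.67 above that in Krt5-led cells. The Krt5-led ratio differed by -1.37 from that in fibroblast-like, by -1.52 from that in pericyte-like and by -1.63 from that in endothelial-like cells. Thinned to 2000 UMIs, the Krt5-led ratio was 0.23, on the same side as the others.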

How the results depend on the processing

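In epithelial-like cells 16 alternatives were run. Pmaip1 stayed at least 1.5-fold lower in all 16, with log2 ratios from -2.66 to -1.42. Mdm2, Sesn1 and Trp53inp1 kept their call in 15, Cdkn1a in 14 and Phlda3 in 12. The counts of members (2 higher, 4 lower) came to 0 and 1 with shared sub-states weighted alike and to 2 and 2 without E4, an alternative added after seeing the data. The median of all genes, 0.21, was not centred in the main values. Centred on it or scaled by TMM, 5 members were lower, with Bbc3 the added one, and 2 higher. Bax (0.03) changed sign there, to -0.17 and -0.23, as it did in 5 of the 16. Sesn2 (0.11) changed sign in 4 of the 16 and Ccng1 (-0.11) in 1. Among genes at 5 CPM or more, also added later, 19.7% were higher and 5.89% lower.

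In the small classes calls were less stable. Thinned to 2000 UMIs, 1 member was higher and 2 lower in Krt5-led cells (0 and 4 in the main values), 1 higher in fibroblast-like (2), 0 higher and 1 lower in pericyte-like (2 and 2) and 0 higher and 0 lower in endothelial-like cells (1 and 1). Trp53inp1 turned to 0.23 in Krt5-led cells there. An added 10 CPM left 1 higher in fibroblast-like cells. Doublets left in gave 1 higher in pericyte-like cells, with Ccng1 at -0.29, and 3 higher and 4 lower in endothelial-like cells. At most 10% mitochondrial UMIs gave 1 lower in pericyte-like cells, and no UMI minimum 3 higher in endothelial-like cells.

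For cells split by Cdkn1a, E1 alone gave 5 higher in the Dll1+ library (8 in the main value, with 6 members measured against 9). An added 10 CPM and thinning to 4000 UMIs each gave 0 lower in the Dll1- library (1). These were added later. Depth limits Sesn1, Sesn2 and Pmaip1 outside epithelial-like cells. No paired analysis was possible because each group had 1 library.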

Other observations

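An unnamed cluster of 11 Dll1+ and 90 Dll1- cells, led by the squamous differentiation genes Spink12, Cnfn, Sprr1a and Krt6b, held more Cdkn1a than any named class. Cdkn1a stood there at 1372 CPM (1159 to 1613) in Dll1+ and 1915 CPM (1809.9 to 2025) in Dll1- cells. In the 90 Dll1- cells Mdm2 was at 79.0 CPM (58.8 to 104), Pmaip1 at 23.2 CPM (13.01 to 38.3), Bax at 203 CPM (169.7 to 241) and Trp53inp1 at 54.2 CPM (37.8 to 75.4). The intervals of Bax and Trp53inp1 lay below those of Dll1- epithelial-like cells, and those of Mdm2 and Pmaip1 overlapped them. Sesn2 was at 43.4 CPM (28.8 to 62.7), against 25.2 CPM (19.8 to 31.5) in Krt5-led cells, the highest of the 5 classes, and Phlda3 at 208 CPM (174 to 246), near its 204 CPM in Krt5-led cells. This cluster was chosen for description after its values were seen.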
